A study of Mus musculus with 12 samples.

Results

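Cholesterol synthesis and uptake genes were followed in mouse embryonic stem cells (ESCs) and in 2 fractions of their day 3 derivatives. The 8 genes described were Hmgcs1, Sqle, Fdft1, Lss, Cyp51 and Dhcr7, which encode enzymes of the pathway, and Insig1 and Srebf2, which encode its regulators. Each gene was taken as the assembled locus that carries its name, with transcripts that match the reference transcript exactly or share a splice junction with it. Each name gave 1 locus, so the 8 genes were 8 of 80012 counted loci, and all 8 passed the filter on low values that left 17922 tested loci. The ESC line has a C57BL/6 background and carries EGFP at the transcription start of Eomes, which encodes a mesendodermal transcription factor, and this reporter was present in every group. ESCs (day 0) grew on mouse embryonic fibroblast feeders in medium with fetal bovine serum and leukemia inhibitory factor. For day 3, hanging drops of the same line were cultured in a different serum-containing medium and sorted on EGFP into an Eomes-positive (Eo+) and an Eomes-negative (Eo−) fraction. There were 4 libraries of poly(A) RNA per group, numbered 1, 2, 5 and 6, and values listed for a group below follow this order. All libraries came from a single reporter line, so the p-values measure the spread between differentiation sets of that line. Day, medium, feeders, aggregation and sorting changed together between ESCs and both fractions and cannot be told apart in those comparisons. Which cells of a bulk sample carry a transcript was not measured, so fewer cells of a type and less RNA per cell cannot be told apart.

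Cells make cholesterol from acetyl-CoA through mevalonate, squalene and lanosterol. The transcription factor encoded by Srebf2 is held in the endoplasmic reticulum membrane with the escort protein Scap, and Insig proteins retain this complex when sterols are plentiful. When sterols run low, the complex moves to the Golgi apparatus, proteases release the factor, and it activates genes for sterol synthesis and uptake. Embryonic cells are known to depend on the pathway, since cholesterol is needed for membranes and for the processing of Hedgehog ligands.

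Promoter windows of 300 bases, from 250 bases before to 50 bases after the annotated start (RefSeq, GRCm38.p6), matched 6 of the 8 genes, with 3 windows for Dhcr7 and 1 for each of the others. Sqle and Fdft1 had no window in the reference table used. Windows were searched on both strands for TCACNCCAC, a core of the sterol regulatory element that the Srebf2 product binds, for ATTGG, the inverted CCAAT box of the factor NF-Y, and for GGGCGG, a box of the factor Sp1. The letters of these motifs do not overlap within the windows printed. The windows of Hmgcs1 (chr13:119690101-119690400, + strand), Cyp51 (chr5:4104648-4104947, − strand), Insig1 (chr5:28071162-28071461, + strand) and Srebf2 (chr15:82147019-82147318, + strand) are shown because these genes include the enzyme with the largest rise in Eo−, the enzyme called higher in Eo+ than in Eo−, and both regulators. Capitals mark matches to the sterol regulatory element core and to the inverted CCAAT box, on either strand.
Hmgcs1: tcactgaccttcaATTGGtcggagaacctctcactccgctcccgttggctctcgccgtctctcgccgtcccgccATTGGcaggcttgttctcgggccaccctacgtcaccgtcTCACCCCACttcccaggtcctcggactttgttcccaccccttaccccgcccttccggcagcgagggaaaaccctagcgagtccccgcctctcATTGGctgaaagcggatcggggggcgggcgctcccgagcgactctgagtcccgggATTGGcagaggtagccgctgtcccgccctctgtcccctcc
Cyp51: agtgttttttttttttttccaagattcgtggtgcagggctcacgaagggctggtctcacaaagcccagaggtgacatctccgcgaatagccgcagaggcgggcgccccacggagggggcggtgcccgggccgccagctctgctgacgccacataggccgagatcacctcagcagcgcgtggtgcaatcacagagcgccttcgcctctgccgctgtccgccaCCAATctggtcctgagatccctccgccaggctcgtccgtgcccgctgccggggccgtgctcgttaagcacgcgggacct
Insig1: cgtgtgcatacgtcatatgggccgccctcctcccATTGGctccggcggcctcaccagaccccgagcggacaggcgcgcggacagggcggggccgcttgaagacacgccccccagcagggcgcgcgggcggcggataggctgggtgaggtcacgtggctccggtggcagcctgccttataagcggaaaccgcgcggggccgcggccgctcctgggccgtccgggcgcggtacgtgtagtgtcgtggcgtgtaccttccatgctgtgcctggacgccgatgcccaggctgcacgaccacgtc
Srebf2: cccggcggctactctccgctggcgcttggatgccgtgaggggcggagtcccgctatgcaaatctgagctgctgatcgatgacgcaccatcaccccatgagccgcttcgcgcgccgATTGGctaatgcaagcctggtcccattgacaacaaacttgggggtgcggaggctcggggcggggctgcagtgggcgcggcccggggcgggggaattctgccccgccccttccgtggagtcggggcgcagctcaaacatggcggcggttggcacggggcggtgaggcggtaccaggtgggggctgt
The sterol regulatory element core was found in the Hmgcs1 window, where TCACCCCAC began at base 114, 137 bases before the start, and in no other window of the 6 genes. Among all 32851 windows of the table, 408 (1.24%) held that core, 37.4% held ATTGG and 35.7% held GGGCGG. Hmgcs1 held 4 matches to ATTGG, while Cyp51, Insig1, Srebf2 and Lss held 1 each and Dhcr7 held 2 in 1 of its windows and 0 in the others. A match is a string of letters and not a measured binding site, and the absence of a match says only that these letters are not in the window.

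The day 3 cells held more mRNA of most enzymes of the pathway than the ESCs did. Of the 8 genes, 7 were higher in Eo− than in ESC and none was lower at an adjusted p of at most 0.05 (limma-voom, Benjamini-Hochberg over all tested loci), where 62.2% of all loci passed the test and 30.9% were called higher and 31.3% lower. Against the same ESC libraries, 6 of the 8 genes were higher in Eo+ and none was lower, where 71.9% of all loci passed and 35.8% were called higher and 36.1% lower. The median log2 fold change of the 8 genes was 0.585 in Eo− and 0.456 in Eo+, while the medians over all tested loci were 0.0156 and 0.00239. The libraries of Eo− and ESC did not overlap for any of the 7 called genes, and 54.2% of all loci were both called and free of overlap. Those of Eo+ and ESC did not overlap for 4 of the 6 called genes, where the share among all loci was 63.7%. Fold changes were modest: Hmgcs1 alone changed by at least 2-fold in Eo−, and Hmgcs1 and Cyp51 did so in Eo+, where 28.3% and 38.1% of all loci were called with at least that change. Without ESC replicate 5, the library with the lowest level for 7 of the 8 genes, 7 genes were called in Eo− and 5 in Eo+, Lss being the gene lost. In these fits 10917 and 12707 of the 17922 loci were called.

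**Figure D1:**
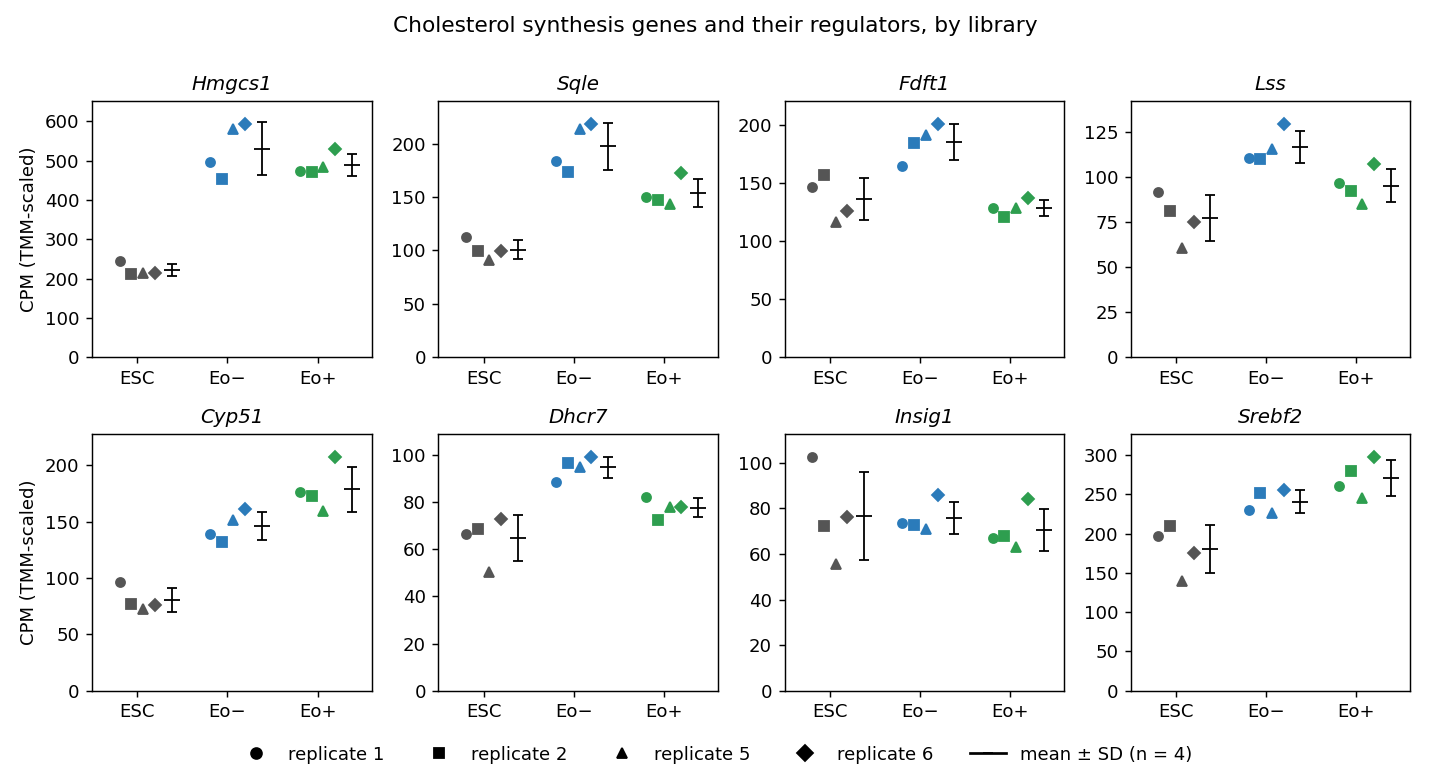
TMM-scaled read counts (CPM) of the 8 genes in each library of ESC, Eo− and Eo+, with symbols for the replicate number and bars for the group mean ± SD (n = 4). All axes start at 0. Hmgcs1 sits between 212 and 246 CPM in ESC and between 453 and 594 CPM in Eo−, while the Insig1 groups overlap.

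Hmgcs1 (ENSMUSG00000093930, mm10 chr13:119690278-119709152, + strand) encodes cytosolic HMG-CoA synthase, an early enzyme of the mevalonate segment. Its level, in CPM (read counts relative to the TMM-scaled library size), was 246, 212, 215 and 214 in ESC, 497, 453, 579.8 and 594 in Eo−, and 475, 470.2, 484 and 529.8 in Eo+. Every day 3 library lay above every ESC library, and the 2 day 3 fractions overlapped. The log2 fold change over ESC was 1.25 ± 0.09 (SE, 2.38-fold, adjusted p = 8.57e-08 by limma) in Eo− and 1.14 ± 0.09 (2.21-fold, adjusted p = 6.58e-08) in Eo+. Between the fractions it was -0.11 ± 0.08 (Eo+ over Eo−, adjusted p = 0.309), with a 95% interval of the fold from 0.817 to 1.05. ESC replicate 1 stood apart at 246 CPM, and the calls over ESC held without any single library.

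Fdft1 (ENSMUSG00000021273, chr14:63145153-63179794, − strand) encodes squalene synthase, the first enzyme committed to sterols. It measured 146, 157, 117 and 126 CPM in ESC, 164, 185, 192 and 201 CPM in Eo−, and 129, 120.4, 128.5 and 137 CPM in Eo+. All Eo− libraries were above all ESC and all Eo+ libraries, whereas Eo+ lay within the ESC range. Fdft1 rose by 0.45 ± 0.09 on the log2 scale in Eo− (adjusted p = 0.000794, limma) and was the only enzyme among the 6 not called in Eo+, at -0.08 ± 0.09 (adjusted p = 0.464), with a 95% interval of the fold from 0.824 to 1.09. Eo+ was lower than Eo− by a log2 difference of -0.53 ± 0.09 (adjusted p = 0.000397), the largest difference between the fractions among the 8 genes.

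Sqle (ENSMUSG00000022351, chr15:59315001-59335137, + strand) encodes squalene epoxidase, which adds the first oxygen to squalene. Its CPM was 112, 99.5, 91.0 and 99.6 in ESC, 184, 174, 214 and 218 in Eo−, and 150.2, 148, 143 and 173 in Eo+. The 3 groups did not overlap, with ESC lowest and Eo− highest. The log2 fold change was 0.97 ± 0.09 in Eo− (1.96-fold, adjusted p = 1.09e-06) and 0.61 ± 0.09 in Eo+ (1.52-fold, adjusted p = 4.34e-05, limma), and Eo+ was lower than Eo− by a log2 difference of -0.36 ± 0.09 (adjusted p = 0.00451).

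Lss (ENSMUSG00000033105, chr10:76531579-76557173, + strand) encodes lanosterol synthase, which closes the sterol rings. It measured 91.4, 81.3, 60.6 and 75.1 CPM in ESC, 110.5, 110.0, 116 and 129 CPM in Eo−, and 96.7, 92.0, 84.8 and 107 CPM in Eo+. Eo− was above both other groups in every library, and Eo+ overlapped ESC because ESC replicate 1 reached 91.4 CPM. In Eo− the rise was 0.61 ± 0.11 on the log2 scale (adjusted p = 0.00034, limma). The 0.31 ± 0.11 of Eo+ over ESC (adjusted p = 0.023) was no longer called without ESC replicate 5 (0.20, adjusted p = 0.0758) or without Eo+ replicate 6 (0.26, adjusted p = 0.0672), nor under 4 of the other settings tried (adjusted p up to 0.0701). The difference between the fractions, -0.29 ± 0.11 (adjusted p = 0.0411), was lost when any single day 3 library other than Eo+ replicate 6 was left out, with adjusted p from 0.0516 to 0.136 and log2 values from -0.32 to -0.23, and also with DESeq2 (0.0542) and without the FPKM filter (0.0651).

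Cyp51 (ENSMUSG00000001467, chr5:4072613-4104788, − strand) encodes lanosterol demethylase, the enzyme that follows lanosterol synthase. Its CPM was 96.3, 77.3, 72.7 and 76.4 in ESC, 139, 132, 151 and 161 in Eo−, and 176, 172, 159.6 and 207 in Eo+. ESC was lowest throughout, and Eo+ replicate 5 lay below the highest Eo− library. The log2 fold change over ESC was 0.86 ± 0.10 in Eo− (1.81-fold, adjusted p = 8.14e-06) and 1.15 ± 0.10 in Eo+ (2.21-fold, adjusted p = 2.41e-07, limma). Cyp51 was the 1 gene of the 8 called higher in Eo+ than in Eo−, by 0.29 ± 0.10 (adjusted p = 0.0257), with Eo+ higher in 4 of 4 pairs of the same number. That call was lost without Eo− replicate 1 (adjusted p = 0.0532), Eo− replicate 2 (0.0789) or Eo+ replicate 6 (0.0797).

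Dhcr7 (ENSMUSG00000058454, chr7:143823077-143848436, + strand) encodes a sterol reductase at the end of the pathway. It measured 66.5, 68.6, 50.5 and 73.0 CPM in ESC, 88.5, 96.7, 94.7 and 99.0 CPM in Eo−, and 82.3, 72.4, 78.0 and 78.0 CPM in Eo+. Eo− was highest in every library, and the lowest Eo+ library fell just inside the ESC range. Dhcr7 rose by 0.57 ± 0.10 on the log2 scale in Eo− (adjusted p = 0.000187) and by 0.28 ± 0.10 in Eo+ (adjusted p = 0.0198, limma), the latter call being lost with DESeq2 (adjusted p = 0.0668), with a filter of 1 CPM in 4 libraries (0.076) and with only the 2 groups compared (0.0525). Eo+ was lower than Eo− by -0.29 ± 0.10 (log2, adjusted p = 0.024), and this call was lost without Eo− replicate 2 (adjusted p = 0.0543), Eo− replicate 6 (0.0735), Eo+ replicate 2 (0.0779) or Eo+ replicate 6 (0.054).

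Srebf2 (ENSMUSG00000022463, chr15:82147002-82205525, + strand) encodes the sterol-regulated transcription factor of the pathway. Its CPM was 197, 209, 139 and 176 in ESC, 230.4, 252, 226 and 255 in Eo−, and 260.5, 280.5, 245 and 297 in Eo+. All day 3 libraries were above all ESC libraries, and the fractions overlapped. The log2 fold change over ESC was 0.43 ± 0.11 in Eo− (1.35-fold, adjusted p = 0.00339) and 0.60 ± 0.11 in Eo+ (1.51-fold, adjusted p = 0.000204, limma). Between the fractions it was 0.17 ± 0.11 (adjusted p = 0.218), although Eo+ was higher in 4 of 4 pairs of the same number. With the replicate number as a block among the 8 day 3 libraries, the same difference was 0.17 with adjusted p = 0.0138 and passed the test.

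Insig1 (ENSMUSG00000045294, chr5:28071363-28078729, + strand) encodes the membrane protein that retains the Srebf2 product, and it is a known target of that factor. It measured 102, 72.2, 55.8 and 76.1 CPM in ESC, 73.6, 72.9, 70.7 and 85.9 CPM in Eo−, and 66.9, 67.9, 63.2 and 84.3 CPM in Eo+. The ESC libraries enclosed the range of both fractions. Insig1 was the 1 gene of the 8 not called in any comparison, at 0.01 ± 0.15 for Eo− over ESC (adjusted p = 0.948), -0.10 ± 0.15 for Eo+ over ESC (adjusted p = 0.571) and -0.11 ± 0.15 for Eo+ over Eo− (adjusted p = 0.567, limma), with Eo+ lower in 4 of 4 pairs of the same number. The 95% intervals of these folds ran from 0.809 to 1.26, from 0.747 to 1.17 and from 0.741 to 1.16.

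Between the fractions, which share day, medium and culture, the 8 genes split. Sqle, Fdft1, Lss and Dhcr7 were lower in Eo+ than in Eo−, Cyp51 was higher, and Hmgcs1, Insig1 and Srebf2 were not called. None of the 8 differed by 2-fold, as 21.1% of all loci did among those called. Over all tested loci 47.7% passed this test, 23.0% higher and 24.6% lower, and 5 called among 8 genes is close to that background. Their median log2 difference was -0.198, against -0.0145 over all loci. The libraries of the 4 lower genes did not overlap between the fractions, and 41.2% of all loci were both called and free of overlap. Over the 3 comparisons, the pattern of Sqle, Lss and Dhcr7 (higher in both fractions than in ESC, lower in Eo+ than in Eo−) was shared by 1.65% of tested loci. The Cyp51 pattern, higher in each comparison, was that of 10.5% of loci, and 12.4% shared the pattern of Hmgcs1 and Srebf2. The patterns of Fdft1 and Insig1 were those of 3.28% and 16.7% of loci. These patterns rest on the calls, and some calls of Lss, Dhcr7 and Cyp51 were lost under other settings, as given above. Leaving out 1 library at a time left between 2 and 5 of the 8 genes called between the fractions, while 7476 to 8844 of the 17922 loci were called. The fewest, Sqle and Fdft1, remained without Eo− replicate 2, where 7507 loci were called, against 8543 with all libraries. These fits did not use the replicate number as a block and so ignore the pairing of the fractions. With the block and all libraries, the calls of Lss, Cyp51 and Dhcr7 were kept.

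The remaining enzymes of the pathway were taken from a list that also held Mvd, which was not analysed here. Counting the 6 enzymes above, 20 enzymes were tested. In Eo− 19 of the 20 were higher than in ESC, all but Ebp, and in Eo+ 19 of the 20 were higher, all but Fdft1, with medians of 0.624 and 0.606 on the log2 scale, to be read against the 30.9% and 35.8% of all loci called higher. Among the mevalonate enzymes other than Hmgcs1, whose values are given above, the kinases Pmvk (1.01 ± 0.13 in Eo−, 0.74 ± 0.13 in Eo+) and Mvk (0.86 ± 0.11 and 0.83 ± 0.11) rose most in the respective fraction. Among the enzymes after lanosterol, Msmo1, a sterol methyl oxidase, rose by 1.14 ± 0.12 in Eo− and 0.75 ± 0.12 in Eo+, and Nsdhl, the sterol dehydrogenase of the same demethylation complex, rose by 0.80 ± 0.10 and 1.05 ± 0.10. Tm7sf2 was counted in a locus joined with its neighbours, so its value cannot be split from theirs.

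Between the fractions, 4 of the 20 enzymes were higher in Eo+ (Cyp51, Nsdhl, Hsd17b7 and Ebp), 6 were lower (Fdps, Fdft1, Sqle, Lss, Msmo1 and Dhcr7) and 10 were not called, and the median was -0.0725. These shares are close to the 23.0% of all loci called higher and 24.6% called lower. In the pathway Fdps (farnesyl diphosphate synthase) makes the substrate of Fdft1. Fdps measured 256 CPM in Eo+ and 339.6 CPM in Eo− on average (log2 difference -0.40 ± 0.10, adjusted p = 0.00448, limma), and Msmo1 measured 131 and 173 CPM (-0.40 ± 0.11, adjusted p = 0.0112). Hsd17b7, a ketosteroid reductase of the demethylation complex, was higher in Eo+ by 0.44 ± 0.14 (adjusted p = 0.0189), a call lost without Eo− replicate 2 (adjusted p = 0.0649) or Eo+ replicate 6 (0.0558). Nsdhl was higher by 0.25 ± 0.09 (adjusted p = 0.0399), a call lost when any of Eo− replicates 1 and 2 and Eo+ replicates 1, 2 and 6 was left out (adjusted p from 0.054 to 0.127), and under 2 other settings (up to 0.0696). Pmvk was not called between the fractions (-0.27 ± 0.12, adjusted p = 0.0858) but was with the replicate block among the day 3 libraries (-0.27, adjusted p = 0.012) and without Eo− replicate 1 (-0.38, adjusted p = 0.0119).

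**Figure D2:**
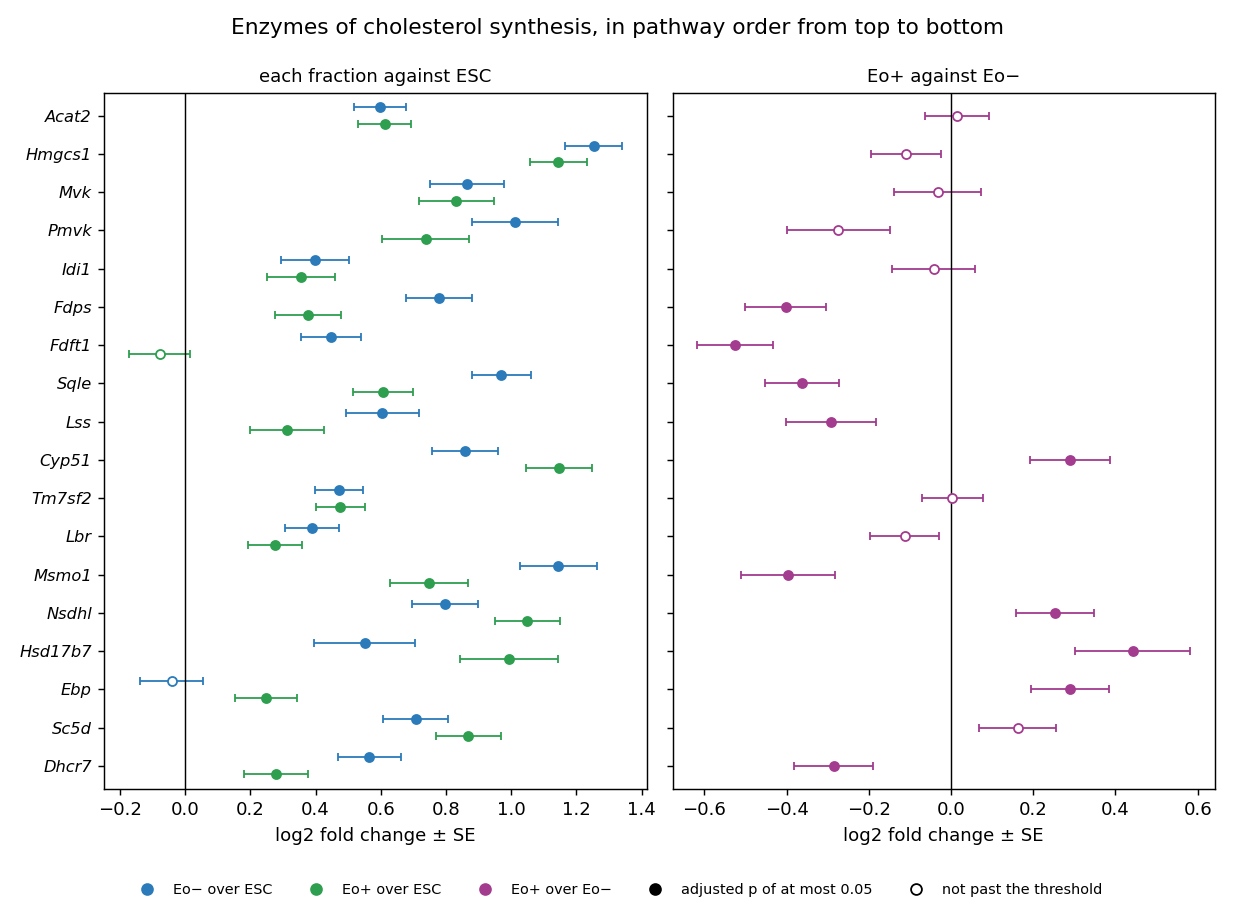
Log2 fold change ± SE of 18 of the 20 enzymes in pathway order, for each fraction over ESC (left) and for Eo+ over Eo− (right). Filled points passed the adjusted p of at most 0.05 and open points did not; on the left the open points are Ebp in Eo− and Fdft1 in Eo+, and on the right 6 filled points lie below 0 and 4 above it.

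Genes of sterol sensing had smaller median log2 fold changes over ESC than the enzymes, 0.185 in Eo− and 0.362 in Eo+, and a median of 0.225 between the fractions. Of 8 such genes other than Insig1 and Srebf2, 4 were higher and 1 lower in Eo− than in ESC, 5 were higher in Eo+ than in ESC, and 5 were higher and 1 lower in Eo+ than in Eo−. The shares of all loci called higher and lower were 30.9% and 31.3%, 35.8% and 36.1%, and 23.0% and 24.6% in these 3 comparisons. Insig2, the second Insig gene, rose by 0.42 ± 0.07 in Eo− (adjusted p = 0.000203) and by 0.49 ± 0.07 in Eo+ (adjusted p = 3.38e-05), whereas Insig1 was called in neither. Per exon length, Insig1 stood at 5.16 ± 1.55 times Insig2 in ESC, 3.77 ± 0.34 times in Eo− and 3.36 ± 0.61 times in Eo+ (mean ± SD of the FPKM ratio, n = 4). Srebf1, the sister gene of Srebf2 that acts mainly on fatty acid genes, was not called in any comparison (0.18 ± 0.11, 0.17 ± 0.11 and -0.01 ± 0.11), except in Eo− over ESC with unscaled library totals (0.25, adjusted p = 0.0477), and the FPKM ratio of Srebf2 to Srebf1 was 2.53 ± 0.26, 3.0 ± 0.17 and 3.38 ± 0.13 in ESC, Eo− and Eo+. Scap measured 41.0, 48.7 and 39.7 CPM on average in ESC, Eo− and Eo+; its calls in Eo− over ESC (0.24 ± 0.10, adjusted p = 0.045) and in Eo+ over Eo− (-0.29 ± 0.10, adjusted p = 0.0261) were lost on leaving out any of 8 and of 5 single libraries, with adjusted p up to 0.127 and 0.0899, and under 4 and 1 of the other settings (up to 0.108 and 0.0514). Mbtps2, a protease that releases the factor, is counted in a locus shared with Yy2 and gave -0.33 ± 0.11 in Eo− over ESC (adjusted p = 0.0181), a call lost without ESC replicate 1 (adjusted p = 0.0624) or Eo− replicate 2 (0.0624), and under 2 other settings (up to 0.0683). Mbtps2 was higher in Eo+ than in Eo− by 0.38 ± 0.11 (adjusted p = 0.0118), with means of 35.9 and 27.6 CPM, no overlap between the libraries of the fractions and the same direction in 4 of 4 same-numbered pairs, and this call held on leaving out any single library (adjusted p up to 0.042).

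Uptake genes rose in part. Of 10 genes for uptake and lysosomal release, 6 were higher in Eo− and 9 in Eo+ than in ESC, none was lower, and 4 were higher in Eo+ than in Eo−, with median log2 fold changes of 0.506, 0.998 and 0.179. Of all loci, 30.9%, 35.8% and 23.0% were called higher in the same comparisons. Vldlr, the very low density lipoprotein receptor, averaged 5.29 CPM in ESC and 5.47 CPM in Eo− and lay between 30.4 and 68.1 CPM in Eo+, a log2 difference between the fractions of 2.91 ± 0.32 (adjusted p = 1.06e-05). Mylip, a ubiquitin ligase that degrades lipoprotein receptors and was chosen after its values were seen, averaged 5.36, 5.50 and 15.5 CPM in ESC, Eo− and Eo+ (1.49 ± 0.19 for Eo+ over Eo−, adjusted p = 4.29e-05).

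**Figure D3:**
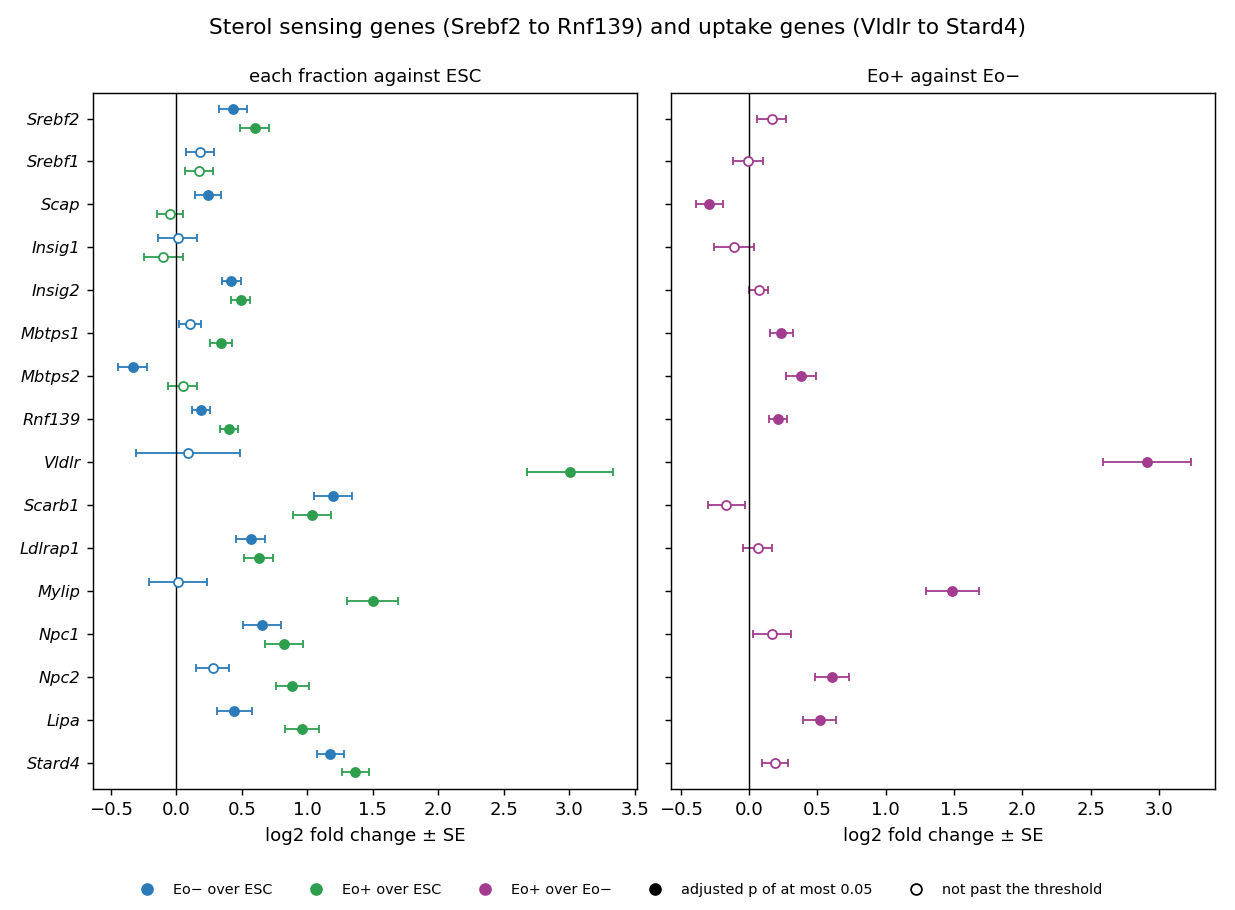
Log2 fold change ± SE of the sterol sensing genes (Srebf2 to Rnf139) and of the uptake and lysosomal genes (Vldlr to Stard4), for each fraction over ESC (left) and for Eo+ over Eo− (right). Filled points passed the adjusted p of at most 0.05; Insig1 and Srebf1 are open throughout, Insig2 is filled for both fractions over ESC, and Vldlr in Eo+ is the point farthest to the right in each panel.

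Genes of export, storage and oxysterols were called in both directions. Of 10 such genes, 3 were higher and 3 lower in Eo− than in ESC, 3 were higher and 5 lower in Eo+ than in ESC, and 2 were lower in Eo+ than in Eo−. The counts in Eo− are at the shares of all loci called higher (30.9%) and lower (31.3%), and those shares were 35.8% and 36.1% in Eo+ over ESC and 24.6% lower between the fractions. The median log2 fold changes of these genes were -0.258, -0.374 and 0.0145. Abca1, the exporter that loads cholesterol onto lipoproteins, measured 9.55, 5.76, 7.01 and 5.15 CPM in ESC, 3.13, 0.973, 0.923 and 0.904 CPM in Eo−, and 0.542, 0.190, 0.351 and 0.12 CPM in Eo+. The 3 groups did not overlap, with log2 fold changes over ESC of -2.40 ± 0.37 in Eo− (adjusted p = 8.02e-05) and -4.68 ± 0.49 in Eo+ (adjusted p = 1.32e-06). The ESC libraries fell in the same order for Abca1 as for the summed fibroblast markers, which were 323, 140, 243 and 122 CPM there and between 28.8 and 73.3 CPM at day 3. Without ESC replicate 1, the highest in both, the Abca1 changes were -2.22 in Eo− and -4.50 in Eo+ (adjusted p = 0.000295 and 4.08e-06). Eo− replicate 1, the highest Eo− library for Abca1, also had the highest Eo− sums of visceral endoderm (17.7 CPM) and primitive blood genes (127 CPM), and without it the change in Eo− was -2.85 (adjusted p = 1.28e-05). The part of these cells in the Abca1 values was not tested. Abcg1, a second exporter, was lower in Eo+ than in ESC by -3.71 ± 0.36 (adjusted p = 6.21e-07) and than in Eo− by -3.20 ± 0.37 (adjusted p = 1.55e-05), and was not called in Eo− over ESC (-0.51 ± 0.25, adjusted p = 0.0942), except without ESC replicate 5 (-0.68, adjusted p = 0.0288) or with the replicate block (-0.52, adjusted p = 0.0446). Cyp27a1, a sterol hydroxylase, averaged 1.33 CPM in ESC, 5.47 CPM in Eo− and 7.29 CPM in Eo+ (2.11 ± 0.21 and 2.52 ± 0.21 over ESC, adjusted p = 1.86e-06 and 1.27e-07). Ch25h, which makes an oxysterol, was at or under 0.320 CPM on average in every group and was lower in Eo− than in ESC (-2.85 ± 0.55, adjusted p = 0.000521).

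The neighbouring lipid pathways were mixed. Of 8 genes for fatty acid synthesis, 5 were higher in Eo− and 3 in Eo+ than in ESC, none was lower, and 1 was higher and 2 lower in Eo+ than in Eo−. The background of higher and lower calls was 30.9% and 31.3% for Eo− over ESC, 35.8% and 36.1% for Eo+ over ESC, and 23.0% and 24.6% between the fractions. The medians of the fatty acid genes were 0.206, -0.00864 and -0.155. The desaturase Scd1 rose by 1.27 ± 0.11 in Eo− and by 1.30 ± 0.11 in Eo+ (adjusted p = 5.11e-07 and 1.59e-07), and Scd2 was higher in Eo+ than in Eo− by 0.35 ± 0.07 (adjusted p = 0.00142). Fasn, the fatty acid synthase, was lower in Eo+ than in Eo− by -0.31 ± 0.09 (adjusted p = 0.012), and its 0.25 ± 0.09 in Eo− over ESC (adjusted p = 0.0311) was lost on leaving out ESC replicate 5, ESC replicate 6, Eo− replicate 2 or Eo− replicate 6 (adjusted p from 0.0654 to 0.108), with DESeq2 size factors or DESeq2 (0.0889 and 0.104) and with a filter of 1 CPM in 4 libraries (0.0644). Of 10 genes on isoprenoid branches, which use intermediates of the same pathway, 3 were higher and 3 lower in Eo− than in ESC, 5 were higher and 3 lower in Eo+ than in ESC, and 5 were higher and 2 lower in Eo+ than in Eo−, with medians of -0.0593, 0.19 and 0.203. The counts in Eo− are again at the background of 30.9% higher and 31.3% lower, and the background was 35.8% and 36.1% in Eo+ over ESC and 23.0% and 24.6% between the fractions. Dhdds, for dolichol synthesis, rose by 0.61 ± 0.06 and 0.80 ± 0.06 over ESC, while Pdss1, for the ubiquinone side chain, fell by 0.53 and 0.74 on the log2 scale (SE 0.07 and 0.08). Icmt, which methylates prenylated proteins, was higher in Eo+ than in Eo− by 0.35 ± 0.08 (adjusted p = 0.00233), and Fntb, a farnesyltransferase subunit counted in a locus joined with Churc1, was lower by -0.25 ± 0.06 (adjusted p = 0.00336). Over all 7 lists, 60 genes other than the 8 were tested, of which 34 were higher and 7 lower in Eo−, 39 higher and 8 lower in Eo+, and 18 higher and 9 lower between the fractions, against 30.9% and 31.3%, 35.8% and 36.1%, and 23.0% and 24.6% of all loci.

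Levels of different genes were compared per exon length, as FPKM. Hmgcs1 was highest in every group, at 48.8 ± 3.55 FPKM in ESC, 117 ± 14.9 in Eo− and 108 ± 6.03 in Eo+ (SD, n = 4), without overlap with the next gene. Srebf2 came second, at 32.5 ± 5.54, 43.5 ± 2.70 and 48.9 ± 4.13 FPKM, and its libraries overlapped those of Fdft1, the third gene, in ESC and Eo− but not in Eo+. Fdft1 overlapped Insig1 in ESC and Eo+. Lss was lowest in every group, at 7.12 ± 1.19, 10.7 ± 0.83 and 8.79 ± 0.86 FPKM, without overlap with its neighbour in the order. Cyp51 stood seventh in ESC (9.46 ± 1.24 FPKM) and Eo− (17.1 ± 1.48 FPKM) and sixth in Eo+ (20.9 ± 2.36 FPKM), where it overlapped both Sqle and Dhcr7. The exon length of an assembled locus includes every exon of its isoforms, so FPKM can understate genes with long assembled loci, of which Lss had the longest among the 8.

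**Figure D4:**
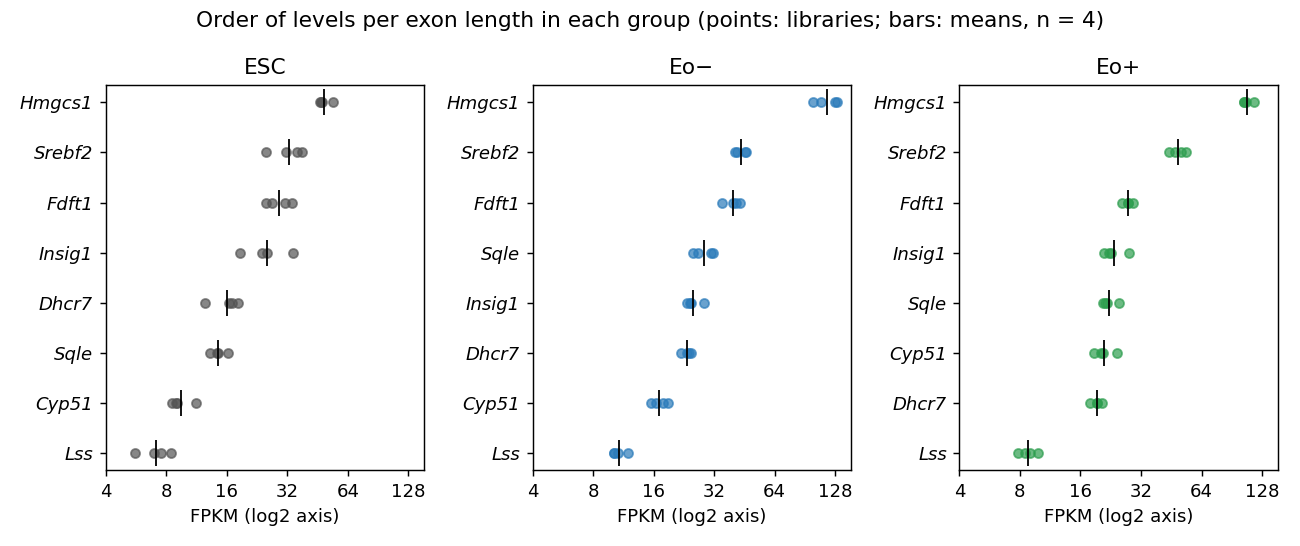
FPKM of the 8 genes on a log2 axis in ESC, Eo− and Eo+, ordered from the highest mean at the top; points are libraries and bars are means (n = 4). Hmgcs1 leads and Lss is last in each panel, and the 4 genes from Insig1 to Dhcr7 lie close together in Eo+.

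Within a group, the same library was often highest or lowest for several of the 8 genes. The summed level of the 8 genes was 1058, 977, 802 and 916 CPM in ESC, 1487, 1475, 1644 and 1743 CPM in Eo−, and 1436, 1423, 1386 and 1613 CPM in Eo+. ESC replicate 5 was lowest for 7 of the 8 genes, Eo− replicate 6 was highest for all 8 and Eo+ replicate 6 was highest for 7. Total counts at loci ranged from 648413022 to 837308168 per library, TMM factors from 0.955 to 1.06, and a count of 3 corresponded to at most 0.00467 CPM, so depth set no limit for these genes. Pluripotency genes, 8 of 8 detected, summed to between 3030 and 4080 CPM in ESC, 1220 and 1570 in Eo− and 540 and 814 in Eo+, and 8 of 8 mesendoderm genes summed to between 94.4 and 293, 264 and 534, and 1860 and 3110 CPM. Pou5f1, at 1034 CPM on average, made up most of the Eo− pluripotency sum. Tbx3 averaged 4.87 CPM in Eo− and 54.5 CPM in Eo+, against the direction of that sum. Eomes itself averaged 46.4 CPM in ESC, 137 CPM in Eo− and 527 CPM in Eo+, so the Eo− fraction was not free of its mRNA. Fibroblast markers, all 10 above 3 counts in some library of each group, summed to 323, 140, 243 and 122 CPM in ESC and to between 28.8 and 73.3 CPM at day 3, and the part of feeder RNA in the ESC values was not tested. Among these markers Thy1 averaged 14.1 CPM in ESC and 21.3 CPM in Eo−, against the direction of the sum. Visceral endoderm genes (8 genes, of which Apoa4 was at or under 3 counts in every ESC library) summed to between 5.44 and 9.88 CPM in ESC, 6.12 and 17.7 in Eo− and 11.3 and 94.5 in Eo+, and primitive blood genes (6 of 6 detected) to between 2.19 and 2.87, 7.36 and 127, and 17.9 and 99.4 CPM, with replicate 1 highest of both fractions. Their part in the differences between the fractions was not tested.

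Genes with the most similar profiles were sought among 12929 other protein-coding loci, by the root mean square difference of log2(CPM + 0.5) over the 12 libraries after the mean of each locus was subtracted. Genes close to the mean profile of the 8 genes were Pdp2 (0.0875), Fbxw5 (0.0909), Garem1 (0.103) and Tecr (0.103). Enzymes of the same pathway were nearest to Sqle (Msmo1, 0.12) and to Cyp51 (Nsdhl, 0.0757). The nearest to the other genes were Gpr161 for Hmgcs1 (0.103), Nckipsd for Fdft1 (0.103), Pdp2 for Lss (0.0909), Vps16 for Dhcr7 (0.0786), Pacs1 for Srebf2 (0.0784) and, for Insig1, the phosphatidate phosphatase gene Lpin1 (0.126). Among the 8 genes, Lss and Dhcr7 were the closest pair (0.12) and Hmgcs1 and Insig1 the farthest (0.609). The 12 libraries fall into 3 groups and share their scaling, so these distances are a description.

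**Figure D5:**
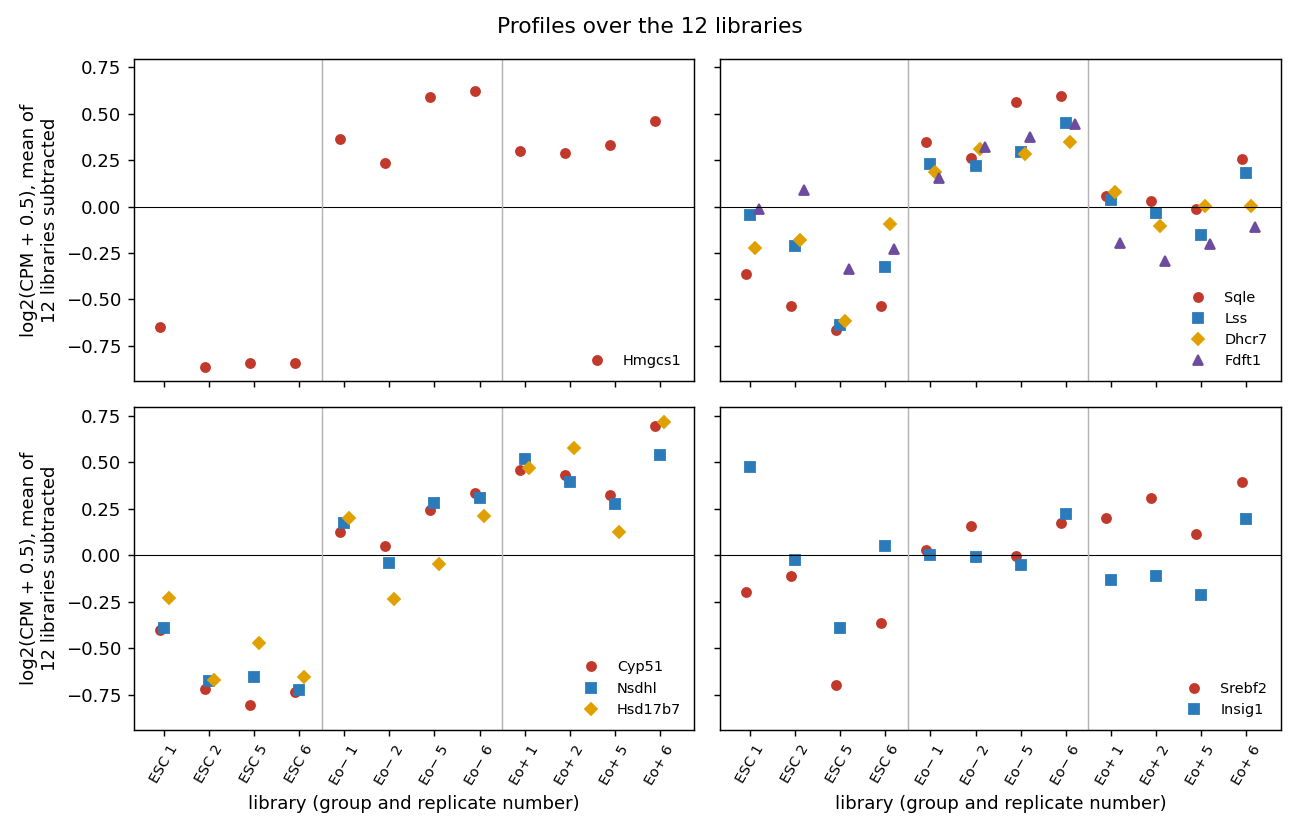
Level of single genes as log2(CPM + 0.5) with the mean of the 12 libraries subtracted, for each library. Hmgcs1 (upper left) is higher in both fractions than in ESC, Sqle, Lss, Dhcr7 and Fdft1 (upper right) are highest in Eo−, Cyp51, Nsdhl and Hsd17b7 (lower left) are highest in Eo+, and Insig1 (lower right) spreads around 0 in every group, with Srebf2 lower in ESC.

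The loci of the 8 genes held no other protein-coding gene. Dhcr7 had the gene Nadsyn1 on the opposite strand, 214 bases from its start, which averaged 4.73, 9.53 and 11 CPM in ESC, Eo− and Eo+ and rose by 1.01 in Eo− (adjusted p = 4.74e-06) and by 1.22 in Eo+ (adjusted p = 3.66e-07, log2, limma). Cyp51 overlapped Akap9 on the opposite strand, which rose by 0.51 in Eo− (adjusted p = 0.000151) and by 0.67 in Eo+ (adjusted p = 7.29e-06). Ctsb, which overlaps Fdft1 on the opposite strand, was not called in any comparison. Reads were counted by strand, so these neighbours were counted apart. The microRNA locus Mir33 inside Srebf2 had 0 counts in every library. Poly(A) libraries do not capture mature microRNAs, so its expression was not measured.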

How the data were processed

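Poly(A) RNA of 12 libraries (4 per group) was sequenced with stranded paired reads. Per the labels and the study's methods, the authors aligned reads to mm10 with STAR, assembled transcripts with Cufflinks 2.2.1 on the Ensembl annotation and counted reads per locus with HTSeq 0.6.1; the STAR version differs between the sources and is left out. The deposited table holds raw counts at 80012 loci, and its tally lines, which name no gene and hold 25.1% to 29.0% of the total (mostly alignments that were not unique), were left out. A deposited table of signal values, made by the authors by dividing counts by 1 constant per library, was used only for its set of 22187 loci. A deposited transcript table gave names, positions and exon lengths, in which 97.7% of matched transcripts were found in GENCODE M21.

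Protein-coding loci, annotated long noncoding RNAs and multi-exon unannotated loci with mean FPKM above 0.1 in at least 1 group were kept (17922). Counts were fitted with limma 3.58.1 (voom, TMM factors from edgeR 4.0.16, R 4.3.3), with 1 mean per group over all 12 libraries and 13.5 moderated degrees of freedom; tests were two-sided and p-values were adjusted by Benjamini-Hochberg over all tested loci. All adjusted p-values of single genes are from this fit unless another setting is named. The fit was also run on simulated data with few changed loci and unpaired groups, unlike these data, and no result here rests on it. Alternatives were other scalings, edgeR, DESeq2 1.42.0, other filters, the replicate block and only the 2 groups compared. Further alternatives left out each library or added a 2-fold minimum to the main calls. The block within the 2 fractions was added after the data were seen. Deviations from group means of same-numbered Eo− and Eo+ libraries correlated at 0.634, 0.311, 0.372 and 0.408, so the numbers pair these fractions, whereas with ESC the correlations ran from -0.125 to 0.432 and were not all above 0.1.

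The 8 genes and the lists were chosen with earlier results of these data known. Genes outside the 8 were named by a rule: per list and comparison the largest called rise and the largest called fall, and always a few more, including Srebf1, Insig2 and Scap; some genes that the rule names are not reported here. Lists held other enzymes before squalene, enzymes after lanosterol, sterol sensing, uptake, export and storage, fatty acid synthesis, isoprenoid branches and markers of 5 cell types. Promoter sequences are from RefSeq.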

Additional observations from a re-analysis of the deposited data

Results flagged for a closer look

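Hmgcs1 in ESC replicate 1 measured 245.6 CPM, while the other ESC libraries lay between 211.6 and 214.8 CPM. Abca1 in Eo− replicate 1 measured 3.13 CPM, while the other Eo− libraries lay between 0.904 and 0.973 CPM. The same library had the highest sums of visceral endoderm genes among Eo− libraries (17.7 CPM, with 7.57 CPM the next highest) and of primitive blood genes (127 CPM, with 14.8 CPM the next highest), and their part in the Abca1 value was not tested. These were 2 of 102 groups of 4 libraries examined in this way, and chance alone gives about 1 in 20. Both groups stayed apart from the groups they are compared with when these libraries are included.

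For 5 of the 8 genes the change from ESC differed between Eo+ and Eo−, as tested by the direct comparison of the fractions with limma. Over all tested loci 47.7% were called in that comparison, so 5 of 8 is close to the background. The calls of Lss, Cyp51 and Dhcr7 were lost on leaving out single libraries, as given above. The change in Eo+ minus that in Eo− was -0.36 (log2) for Sqle (adjusted p = 0.00451), -0.53 for Fdft1 (0.000397), -0.29 for Lss (0.0411), 0.29 for Cyp51 (0.0257) and -0.29 for Dhcr7 (0.024).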

How the results depend on the processing

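No value reversed its direction among called values under any alternative. For the 8 genes, 495 alternative values kept their side of the threshold, 40 lost a call and 1 gained it. For the named genes of the lists the numbers were 1635, 86 and 18. The lost calls include those removed by a 2-fold minimum, which did not change the fit. When a change of at least 2-fold was also required, 1, 2 and 0 of the 8 genes remained called in Eo− over ESC, Eo+ over ESC and Eo+ over Eo−, and 11, 13 and 4 genes of the lists. The shares of all loci were 28.3%, 38.1% and 21.1%. Leaving out 1 library at a time gave 7 to 7, 5 to 6 and 2 to 5 called among the 8 genes in these comparisons, and 35 to 40, 44 to 49 and 20 to 30 among the list genes. Of the 17922 loci, 10239 to 11309, 12347 to 12873 and 7476 to 8844 were called in the same fits. Between the fractions the 8 genes fell to 2 called without Eo− replicate 2, and to 3 without Eo− replicate 1, Eo− replicate 6, Eo+ replicate 2 or Eo+ replicate 6, and the cause was not tested.

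With the replicate block over all 12 libraries 7, 6 and 5 of the 8 genes were called, where 11839, 13402 and 9555 of the 17922 loci were called. With the block in the 2 fractions alone 6 were called between them, Srebf2 being the addition (0.17, adjusted p = 0.0138). That setting called 10392 of the 17922 loci, against 8543 without the block. Apart from the calls given above for Srebf2, Pmvk and Abcg1, the block changed, among the genes named, the calls of Ch25h (1.19, adjusted p = 0.0228) and Cyp27a1 (0.42, adjusted p = 0.00544) in Eo+ over Eo−. ESC replicates 1 and 2 correlated best with the Eo− library of their own number (0.254 and 0.432), whereas ESC replicates 5 and 6 correlated negatively with both fractions of their number, so the number was not taken to pair ESC with the fractions. Pdss1 in Eo+ over Eo− (-0.21, adjusted p = 0.0404) lost its call when any of 7 single libraries was left out (adjusted p up to 0.125).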
